A study of Mus musculus with 16 samples.

Results

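Striata of mice with 2 floxed Trrap alleles and a Camk2-Cre transgene were compared with those of control mice by RNA-seq at 10 days of age. The comparison took every striatal library of the series, which made 8 of 16 libraries, and covered 18872 genes with enough counts to be tested out of 53801 gene identifiers. Mutant mice (Trrap-FBΔ) had the genotype Trrap Fl/Fl; Camk2-Cre tg, and their striata came from mice 57, 59, 60 and 61. Control mice had the genotype Trrap Fl/+; Camk2-Cre tg, and their striata came from mice 58, 63, 64 and 65. Both groups thus carried the Cre transgene, and each control mouse had 1 floxed and 1 wild-type Trrap allele. The mice were of the mixed strain C57BL6/J-129sv. The control striata came from 1 female and 3 males and the mutant striata from 3 females and 1 male, so sex and genotype overlapped in part. The authors describe the Trrap deletion as lying in pyramidal neurons of cortex and striatum, and in forebrain glutamatergic neurons. Most neurons of the striatum are GABAergic. These counts do not show which cells of the striatum had recombined. The tissue was sequenced in bulk, and fewer cells of a type cannot be told apart from less RNA per cell.

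TRRAP is a very large scaffold protein with a kinase-like domain that has lost its catalytic activity. It sits in the SAGA and TIP60 complexes, brings them to DNA-bound transcription factors such as MYC, E2F, p53 and Sp1, and so guides histone acetylation at promoters. The striatum is the input station of the basal ganglia. Its projection neurons use GABA, carry dopamine receptors of the D1 type (direct pathway) or the D2 type (indirect pathway), and receive glutamatergic axons from cortex and thalamus. At 10 days after birth the mouse striatum still receives new cells from the subventricular zone, its axons are growing, and its oligodendrocytes have begun to make myelin.

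The striatal libraries held 31735896 to 43897446 counts in the control group and 37139161 to 47612379 in the mutant group. The first principal component of log2 CPM carried 45.3% of the variance and had the 4 control libraries on one side and the 4 mutant libraries on the other. Counts of Xist and of Y-linked genes matched the labelled sex in 8 of 8 striatal libraries. Levels are given as CPM, in which a library's total over the tested genes was scaled with TMM factors. A gene is called when edgeR's quasi-likelihood test gave a Benjamini-Hochberg adjusted p under 0.05, and changes are log2 fold changes of Trrap-FBΔ over control with their standard error (SE), n = 4 libraries a group. Values of single genes are listed for control mice 58, 63, 64 and 65 and then for mutant mice 57, 59, 60 and 61.

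The labelled tissue was checked against markers of brain regions and cell types. None of the 38 markers of striatal projection neurons was at 0 in all striata, but their summed level did not set the striatal libraries apart from the cortical ones: it was 3071 to 6356 CPM in control striata, 3502 to 4302 CPM in mutant striata and 3455 to 5073 CPM in the cortices. Ppp1r1b, which encodes DARPP-32, the classical marker of these neurons, stood at 20.2, 101, 312 and 92.5 CPM in the controls and at 133, 69.1, 67.3 and 75.6 CPM in the mutants. The lowest and the highest value both belonged to control mice, and the change of -0.61 was not called (adjusted p = 0.47 by edgeR). The dopamine receptor genes Drd1 and Drd2 were also lowest in control 58 and highest in control 64, with Drd1 at 8.16 and 62.3 CPM and Drd2 at 11.4 and 40.8 CPM. By edgeR, 1 marker of the projection neurons was higher (Gad2) and 4 were lower (Rasgrp2, Kcnab1, Rgs4 and Ptpn5). The lower count was 9 without control 58, and the higher count was 5 without control 64. Of 10 direct pathway markers 2 were higher, Ebf1 (0.58) and Zfhx3 (0.49), and 1 was lower, the muscarinic receptor gene Chrm4 (-0.91), which lost its call without control 63, control 64 or any mutant; of 9 indirect pathway markers tested 1 was higher and 1 lower, and of 21 interneuron markers 1 was higher and 3 lower. Without control 58 the lower counts were 4 for the direct and 3 for the indirect pathway. Without mutant 57 or control 65 the lower count of interneuron markers was 1. Direct pathway markers summed to 248 to 380 CPM in control and 304 to 322 CPM in mutant striata. In the cortices they summed to 189 to 245 CPM. Interneuron markers summed to 915 to 1062, 965 to 1022 and 591 to 719 CPM in the same order. Both sums were higher in every striatum than in any cortex. The indirect pathway sums overlapped, at 418 to 755, 391 to 510 and 380 to 616 CPM.

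Markers of regions next to the striatum were present and differed between libraries. The midbrain, thalamus and habenula, hypothalamus and hindbrain lists were chosen after values were seen. Their counts describe these libraries and are no separate test. Transcription factors of the midbrain summed to 60.2 to 221 CPM in control striata and 216 to 360 CPM in mutant striata, against 12.9 to 22.5 CPM in the cortices, and were lowest in controls 63 and 64. Of 29 such genes tested 16 were higher and 0 lower, with a median log2 fold change of 1.02; the count of lower genes was 0 also at an unadjusted p under 0.05 and by DESeq2. Without mutant 57, 59 or 61, or control 64, the number of higher midbrain genes was 8 to 10. Thalamic and habenular genes summed to 597 to 930 CPM in control and 768 to 953 CPM in mutant striata, with 9 of 20 higher and 1 lower (5 higher without mutant 59). Hypothalamic genes reached 90.7 to 131 and 112 to 149 CPM, with 1 of 14 higher and 1 lower. Hindbrain and raphe genes were uneven within both groups, at 2.81 to 127 CPM in control and 3.45 to 67.8 CPM in mutant striata; of 7 tested, 0 were called by edgeR or DESeq2 and 0 had an unadjusted p under 0.05. Markers of cortical excitatory neurons summed to 1630 to 2069 CPM in control striata, 1207 to 1456 CPM in mutant striata and 4692 to 5577 CPM in the cortices. Libraries thus stood apart in the levels of regional markers, and the midbrain and cortical markers moved with genotype. The fit was therefore repeated with the level of each of these lists as a covariate, without controls 63 and 64, and without control 58 and mutant 61. The counts are given beside the main groups of genes, and beyond that the part these markers had in the results was not tested.

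**Figure D1:**
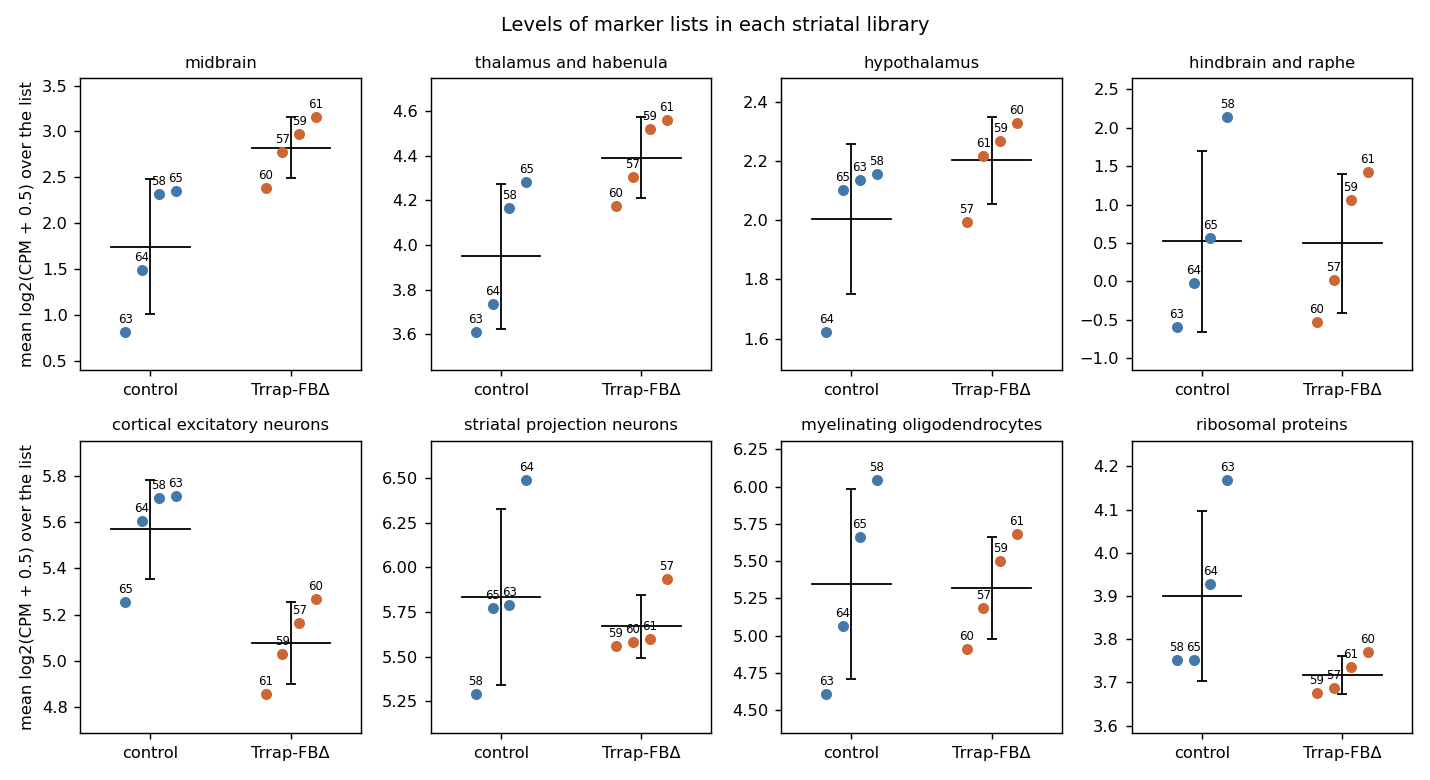
Levels of 8 marker lists in each striatal library, as the mean of log2(CPM + 0.5) over the list (y axis) in the control group (blue) and in Trrap-FBΔ (orange); numbers name the mice, and bars give the mean and SD of 4 libraries. Midbrain levels are lowest in controls 63 and 64, cortical excitatory levels are lower in the mutants with overlap between control 65 and mutant 60, and projection neuron levels spread widest among the controls.

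Trrap itself (chr5:144767732-144859778, plus strand, GRCm38) was at 157, 146, 156 and 147 CPM in the controls and at 154, 141, 150 and 143 CPM in the mutants, so the groups overlapped. The means were 152 ± 5.96 and 147 ± 6.17 CPM (SD, n = 4), the log2 fold change was -0.04 (SE 0.048, adjusted p = 0.52 by edgeR), and an exact 2-sided permutation test of CPM gave p = 0.343, where the smallest p that 4 against 4 allows is 0.0286. The counts run over the whole gene, so they do not show whether the floxed part was removed. The authors reported efficient Trrap deletion at this age, and referred to western blots of forebrain protein and to qPCR.

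Across the striatum 5704 of 18872 genes were differentially expressed (DEGs), 30.2%: 2725 were higher in Trrap-FBΔ (14.4% of genes tested) and 2979 were lower (15.8%). Counts of members called in the gene lists are to be read against these shares. The changes were mostly small. The median size over the DEGs was 0.37 on the log2 scale, and 418 DEGs changed by over 2-fold, of which 303 were higher and 115 lower. The groups did not overlap for 2942 higher genes (15.6%) and 3027 lower genes (16.0%). Direction varied with the kind of transcript. Of 15530 protein-coding genes 2290 were higher and 2712 lower, whereas of 651 antisense transcripts 117 were higher and 40 lower (6.14%), and of 96 long non-coding RNAs from bidirectional promoters 28 were higher (29.2%) and 5 lower (5.21%). Against a fold change of 1.2 instead of 0, 648 genes were higher and 716 lower. With the cortical excitatory level as a covariate, which itself nearly separated the groups, 713 DEGs were left (307 higher and 406 lower), and 695 of them were among the 5704. With the midbrain level as a covariate there were 4309 DEGs (1772 higher, 2537 lower), with 2951 of them among the 5704. The midbrain level, as mean log2(CPM + 0.5) over the list, did not overlap between the groups. It was 0.820 to 2.35 in control and 2.38 to 3.16 in mutant striata. Genotype and either covariate could therefore not be fully told apart, here and in the counts below. Such counts of calls do not give the size of a change. With the projection neuron level as a covariate, which overlapped between the groups, there were 5516 DEGs (2635 higher, 2881 lower). Of these, 5141 were among the 5704.

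**Figure D2:**
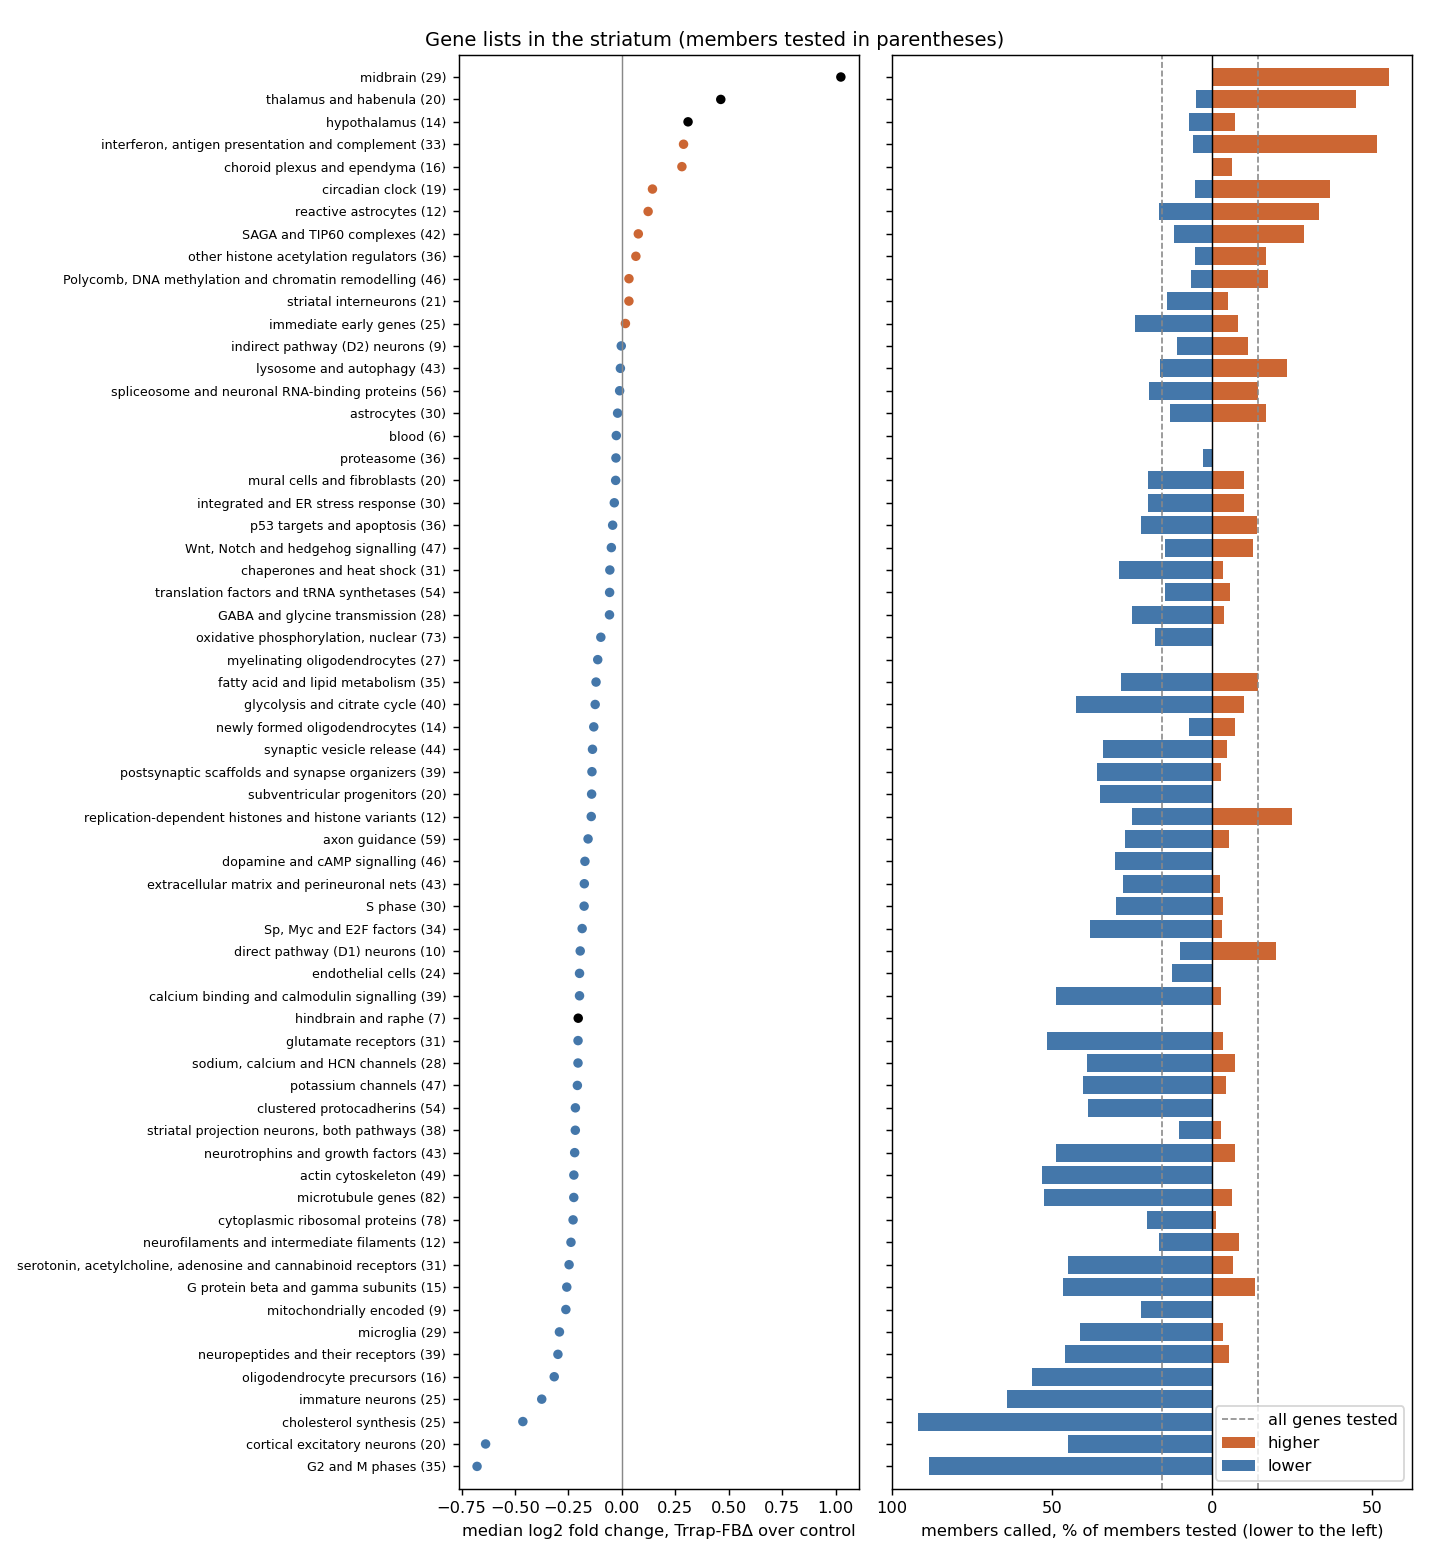
Gene lists in the striatum. Left, the median log2 fold change of the members tested (orange above 0, blue below, black for the 4 regional lists); right, the share of members tested that were higher (orange, to the right) or lower (blue, to the left), with dashed lines at the 14.4% and 15.8% of all genes. By share, the lists of cholesterol synthesis, G2 and M phases and immature neurons reach farthest to the left, and the midbrain and interferon lists farthest to the right. The midbrain list was chosen after values were seen.

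Genes of cell division fell. Of 35 genes of the G2 and M phases tested, 31 were lower and 0 higher, with a median log2 fold change of -0.68 against -0.01 over all genes; 0 were higher also at an unadjusted p under 0.05 and by DESeq2. Cdk1, the kinase that drives entry into mitosis, stood at 6.35, 10.2, 9.55 and 7.37 CPM in the controls and at 4.29, 4.49, 4.06 and 4.97 CPM in the mutants. Every mutant striatum was below every control (log2 fold change -0.91, SE 0.147, adjusted p = 0.0017). Its partner cyclins fell as well, Ccnb1 by 0.92 and Ccnb2 by 0.67 on the log2 scale. Top2a, which untangles DNA before division, went from 24.0, 24.9, 33.1 and 26.2 CPM to 14.5, 13.9, 14.5 and 16.0 CPM. Mki67, the proliferation antigen, went from 33.9, 28.8, 40.2 and 37.2 CPM to 17.3, 19.6, 18.3 and 23.4 CPM. Neither gene overlapped between the groups, with changes of -0.88 and -0.84. Pttg1, which encodes securin, the guard of sister chromatids, had the largest fall of the list at -1.57, but control 65 stood at 3.33 CPM, near the mutant values of 2.45 to 3.16 CPM, while the other controls held 9.0 to 10.8 CPM. In the cortex Pttg1 stood at -2.13.

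The S phase list moved less. Of 30 genes tested 9 were lower and 1 higher, with a median of -0.18, and 5 were lower without control 64, mutant 59 or mutant 60. Rrm2, a subunit of the enzyme that makes deoxynucleotides, fell by 0.75, and Cdc6, which loads the replicative helicase, fell by 0.84; Pole, a DNA polymerase subunit, rose by 0.38. Progenitors of the subventricular zone had 7 of 20 markers lower and 0 higher (0 also at an unadjusted p under 0.05 and by DESeq2), among them Fabp7, a fatty acid carrier of radial glia, at 332, 431, 346 and 332 CPM in the controls and 206, 213, 262 and 263 CPM in the mutants. The progenitor count was 4 lower without mutant 60 and 2 with the cortical covariate. The counts for the G2 and M phases list were 10 lower with the cortical covariate and 21 with the midbrain covariate. They were 26 without controls 63 and 64 and 29 without control 58 and mutant 61, with 0 higher in each of these fits. The median of this list was -0.74 with the cortical covariate and -0.61 with the midbrain covariate.

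The promoters of 2 of these genes are shown because their members fell together. They are read 5′ to 3′ and end at the base before the RefSeq start of the gene (GRCm38.p6). Capitals mark, on either strand, the cell cycle homology region TTTGAA, the CCAAT box CCAAT and the GC box GGGCGG.
Cdk1 (chr10:69352913-69353092, minus strand): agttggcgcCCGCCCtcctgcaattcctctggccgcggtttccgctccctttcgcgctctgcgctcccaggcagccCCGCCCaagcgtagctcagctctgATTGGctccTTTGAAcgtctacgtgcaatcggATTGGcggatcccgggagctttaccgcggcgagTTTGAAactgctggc
Ccnb2 (chr9:70421555-70421734, minus strand): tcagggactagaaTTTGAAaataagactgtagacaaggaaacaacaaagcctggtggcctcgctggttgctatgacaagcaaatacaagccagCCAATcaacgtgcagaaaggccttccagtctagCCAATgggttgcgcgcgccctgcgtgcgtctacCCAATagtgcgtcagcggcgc

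Within 250 bases before the start, 25 of 32 G2 and M phases genes with a promoter window held CCAAT on either strand (78.1%), against 35.9% of 12080 protein-coding genes tested. TTTGAA was in 10 of 32 (31.3%) against 10.7%, and GGGCGG in 22 of 32 (68.8%) against 57.1%. With the 50 bases after the start included, TTTGAA was in 24 of 32 (75%) against 11.9%. A match in letters describes the sequence and does not show that a factor bound there.

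Cholesterol synthesis fell nearly throughout. Of 25 genes tested 23 were lower and 0 higher (0 also at an unadjusted p under 0.05 and by DESeq2), with a median log2 fold change of -0.46, and 21 of them did not overlap between the groups. Hmgcs1, which makes HMG-CoA at the start of the pathway, stood at 907, 843, 821 and 818 CPM in the controls and at 489, 507, 470 and 556 CPM in the mutants. The gap between the groups was wider than the spread within either one (log2 fold change -0.75, SE 0.067, adjusted p = 0.00012). Sqle, the squalene epoxidase that starts the sterol branch, went from 165, 147, 149 and 145 CPM to 95.3, 100, 97.4 and 104 CPM (-0.61, SE 0.053). The groups did not overlap here either. Later steps fell by similar amounts, with Msmo1 at -0.65, Nsdhl at -0.70 and Cyp51 at -0.64. Smaller changes were found for Insig1, which holds the sterol sensor in the endoplasmic reticulum (-0.45), and for Srebf2, the transcription factor of the pathway (-0.23, adjusted p = 0.045). Srebf2 lost its call with limma-voom, with upper-quartile normalization, with sex as a covariate and without control 58, control 64 or any mutant. Srebf1, the sister factor of fatty acid synthesis, rose by 0.54, from 36.1, 28.6, 33.7 and 32.7 CPM to 48.3, 48.0, 44.3 and 49.4 CPM. The cholesterol synthesis list had 11 genes lower with the cortical covariate, 22 with the midbrain covariate, 23 without controls 63 and 64 and 21 without control 58 and mutant 61.

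Promoters of 3 genes of this list, from the first step and from 2 later ones, are shown in the same way. Capitals mark the form TCACNCCAC of the sterol regulatory element, CCAAT and GGGCGG on either strand.
Hmgcs1 (chr13:119690101-119690350, plus strand): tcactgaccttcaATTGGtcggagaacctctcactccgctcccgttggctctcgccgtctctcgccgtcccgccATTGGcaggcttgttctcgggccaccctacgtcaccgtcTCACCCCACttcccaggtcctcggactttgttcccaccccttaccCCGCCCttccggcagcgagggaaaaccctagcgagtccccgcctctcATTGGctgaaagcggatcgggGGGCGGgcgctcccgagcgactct
Cyp51 (chr5:4104698-4104847, minus strand): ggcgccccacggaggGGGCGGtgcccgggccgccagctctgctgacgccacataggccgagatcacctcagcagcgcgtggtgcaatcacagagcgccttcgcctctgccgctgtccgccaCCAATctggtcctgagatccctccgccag
Mvd (chr8:122443423-122443572, minus strand): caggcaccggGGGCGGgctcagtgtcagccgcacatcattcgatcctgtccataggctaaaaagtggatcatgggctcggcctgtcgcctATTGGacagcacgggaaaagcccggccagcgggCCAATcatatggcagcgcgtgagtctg

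GGGCGG was found within 250 bases before the start of 16 of 17 cholesterol genes with a promoter window (94.1%, against 57.1% of all protein-coding genes tested), and CCAAT in 15 of 17 (88.2%, against 35.9%). The letters TCACNCCAC, a single form of the sterol regulatory element, were in 1 of 17, Hmgcs1, and in 0.993% of all promoters searched. Other forms of the element were not searched, so the count does not show which promoters lack it. Mvd, which makes isopentenyl diphosphate, fell by 0.66.

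Genes of young, growing neurons fell. Of 25 tested 16 were lower and 0 higher (0 also at an unadjusted p under 0.05 and by DESeq2), with a median of -0.38. Dpysl3, a collapsin response mediator of growth cones, stood at 578, 562, 599 and 498 CPM in the controls and at 221, 232, 230 and 268 CPM in the mutants (-1.23, SE 0.078, adjusted p = 3.8e-05). Gap43, the growth cone phosphoprotein, went from 666, 703, 691 and 668 CPM to 392, 402, 409 and 438 CPM (-0.73, SE 0.055). Dcx, doublecortin of migrating neurons, went from 168, 225, 224 and 162 CPM to 112, 112, 119 and 115 CPM (-0.77, SE 0.106). The mutant values lay close to each other and below the lowest control in all 3 genes. Cd24a, a surface protein of neuroblasts, fell by 0.84, and Nrep, a regeneration-related protein, by 0.58. Some of the list are microtubule genes, such as Stmn2 (-0.93); of 82 microtubule genes as a whole 43 were lower and 5 higher, with a median of -0.23. Immature neuron genes were lower in 7 cases with the cortical covariate and 13 with the midbrain covariate, with medians of -0.37 and -0.36. The counts were 14 without controls 63 and 64 and 16 without control 58 and mutant 61.

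The actin cytoskeleton moved the same way as a list, with 26 of 49 genes tested lower and 0 higher (0 also at an unadjusted p under 0.05 and by DESeq2) and a median of -0.22. Actb, the main actin of neurons, went from 598, 555, 637 and 513 CPM to 371, 356, 350 and 374 CPM (-0.67, SE 0.071). Tmsb4x, which binds actin monomers, went from 583, 838, 657 and 586 CPM to 401, 426, 455 and 409 CPM (-0.66, SE 0.110), and its relative Tmsb10 fell as well. The groups were apart for each of these. Flna, a filamin that crosslinks filaments, fell by 0.81, Coro1a, a coronin, by 0.71 and Arpc5, a subunit of the branching Arp2/3 complex, by 0.50. Low counts of Actg1 and Tmsb10 may reflect near-identical copies of these genes, since reads had to map to 1 place, and are uncertain. With the cortical covariate 3 actin genes were lower, with the midbrain covariate 24.

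The interferon, antigen presentation and complement list rose. Of 39 genes 33 had enough counts to be tested, and 17 were higher and 2 lower, with a median of 0.29. C4b, a complement component, stood at 5.47, 4.92, 6.26 and 6.14 CPM in the controls and at 11.4, 10.6, 10.8 and 11.6 CPM in the mutants (0.96, SE 0.090, adjusted p = 0.00014). H2-D1, a classical class I antigen-presenting molecule, went from 28.2, 24.4, 27.4 and 27.8 CPM to 40.5, 39.8, 39.3 and 42.3 CPM (0.59, SE 0.058). Every mutant value exceeded every control value in both genes. Tap1, the peptide transporter for class I molecules, rose by 0.66, the class II chain Cd74 by 0.77, and the regulators Irf7 by 0.80 and Irf1 by 0.45. Interferon-induced genes were scarce. Ifit1 held 0.491, 0.671, 0.739 and 0.827 CPM in the controls and 1.38, 0.998, 1.78 and 2.40 CPM in the mutants (1.26, SE 0.274), and Usp18, which damps interferon signalling, 0.426, 0.373, 0.356 and 0.449 CPM and 0.836, 0.683, 1.19 and 1.10 CPM (1.25, SE 0.223). Oasl2 went from about 2 CPM in each control (1.91 to 2.03) to 4.04, 3.28, 4.75 and 4.30 CPM. Ifit2 fell by 0.36 and Gbp3 by 0.32, and Gbp3 lost its call with sex as a covariate and without any single library except mutant 60. The 6 genes that were not tested, among them Tnf, Il1b and Cxcl10, held at most 0.293 CPM (Oas1a) in any striatum. Counts of higher genes were 3 with the cortical covariate, 10 with the midbrain covariate, and 13 both without controls 63 and 64 and without control 58 and mutant 61.

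Promoters of 2 of the interferon-induced genes are shown with the interferon-stimulated response element (GAAA, any 2 bases, GAAA), on either strand, in capitals. Overlapping matches run together in Isg15.
Isg15 (chr4:156200819-156200938, minus strand): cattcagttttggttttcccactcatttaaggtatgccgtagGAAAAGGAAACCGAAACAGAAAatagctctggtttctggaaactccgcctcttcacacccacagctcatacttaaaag
Ifit1 (chr19:34640769-34640888, plus strand): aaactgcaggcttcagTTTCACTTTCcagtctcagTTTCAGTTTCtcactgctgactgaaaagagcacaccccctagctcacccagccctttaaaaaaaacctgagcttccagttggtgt

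The element was within 250 bases before the start of 8 of 24 genes of the list with a promoter window (33.3%), against 2.51% of all protein-coding genes tested, 1.86% of those that were higher and 2.02% of those that were lower. Isg15, a ubiquitin-like modifier, stood at 0.426 to 0.696 CPM in the controls and 0.754 to 1.19 CPM in the mutants (0.79, SE 0.218, adjusted p = 0.021).

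Microglial and immune markers did not move as one. Of 29 microglial genes 12 were lower and 1 higher, with a median of -0.29. P2ry12, the purinergic receptor of resting microglia, was at 70.6 ± 6.78 CPM in the controls and 45.5 ± 4.37 CPM in the mutants (SD, n = 4), without overlap (-0.63, SE 0.084), Tmem119 fell by 0.48, and Cx3cr1, the fractalkine receptor, by 0.38. The gene that rose was Cd163, a scavenger receptor of border macrophages (0.59). The summed level of the list was 582 to 709 CPM in control and 516 to 541 CPM in mutant striata. With the midbrain covariate 4 microglial genes were lower, and with the cortical one 0 by edgeR. The medians were -0.04 and -0.14.

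Of 16 oligodendrocyte precursor markers 9 were lower and 0 higher (0 also at an unadjusted p under 0.05 and by DESeq2), with a median of -0.32. Pdgfra, the receptor that defines these cells, went from 211, 198, 208 and 210 CPM to 143, 149, 141 and 151 CPM (-0.50, SE 0.043, adjusted p = 0.00011). Ptprz1, a receptor phosphatase, fell by 0.54, and the proteoglycan Vcan by 0.55. With the midbrain covariate 13 precursor markers were lower, and with the cortical one 3. The medians were -0.56 and -0.46. Of 27 markers of myelinating oligodendrocytes 0 were called by edgeR or DESeq2 and 0 had an unadjusted p under 0.05, with a median of -0.11. Their summed level spread from 3822 to 11196 CPM among the controls and from 4738 to 8242 CPM among the mutants. Mbp, which compacts myelin, stood at 4956, 1821, 2465 and 3691 CPM and at 2573, 3403, 2112 and 3724 CPM, so the groups overlapped broadly. The myelin sum, like the midbrain sum, was lowest in controls 63 and 64 and mutant 60 of their groups. With the midbrain level as a covariate, which itself separated the groups, 26 of 27 were lower, with a median of -1.02. Without controls 63 and 64 there were 7.

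Astrocyte markers were called at shares near those of all genes (14.4% higher and 15.8% lower), with 5 of 30 higher and 4 lower and a median of -0.02. The higher count was 2 without mutant 59, 3 without mutant 57, mutant 60 or control 64, and 1 with the cortical covariate. Gfap, the intermediate filament of reactive and white matter astrocytes, stood at 208, 219, 193 and 214 CPM in the controls and at 285, 307, 308 and 335 CPM in the mutants (0.57, SE 0.061). Slc1a2, the main glutamate transporter, went from 2324, 2146, 2334 and 2271 CPM to 1812, 1874, 1766 and 1595 CPM (-0.36, SE 0.070). Of 12 tested genes of reactive astrocytes 4 were higher and 2 lower. Of 24 endothelial genes 3 were lower, or 11 without control 63 and 1 without control 64, mutant 59 or mutant 60, and of 20 genes of mural cells and fibroblasts 2 were higher and 4 lower. Of 16 genes of choroid plexus and ependyma 1 was higher, Otx2, which also belongs to the midbrain list, and of 6 tested blood genes 0 were called by edgeR or DESeq2 and 0 had an unadjusted p under 0.05.

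Markers of cortical excitatory neurons had the lowest median after the G2 and M phases list, at -0.64, with 9 of 20 lower and 0 higher (1 at an unadjusted p under 0.05, 0 by DESeq2). Nrgn, neurogranin, a calmodulin-binding protein of dendritic spines, went from 340, 379, 426 and 255 CPM to 185, 173, 185 and 130 CPM (-1.06, SE 0.155). Slc17a7, the vesicular glutamate transporter of cortical neurons, went from 410, 380, 379 and 236 CPM to 240, 142, 235 and 145 CPM (-0.88, SE 0.212), and Fezf2, a transcription factor of deep-layer cortical neurons, from 14.4, 15.5, 9.77 and 8.91 CPM to 5.29, 3.94, 8.10 and 3.40 CPM (-1.22, SE 0.269). Slc17a7 overlapped between control 65 and mutant 57, and the groups were apart for the others. In the cortices the median of the list was -0.10, with Slc17a7 at 0.11 and Fezf2 at 0.03. With the midbrain covariate 2 of the markers were lower, and without controls 63 and 64 there were 5.

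Among transcription and chromatin regulators, the SAGA and TIP60 list, which holds Trrap's own partners, had 12 of 42 genes higher and 5 lower, with a median of 0.08. With the cortical covariate 1 was higher and 0 lower by edgeR, and with the midbrain covariate 10 were higher and 3 lower. Supt7l, a structural subunit of SAGA, went from 14.7 to 17.8 CPM in the controls to 20.5 to 23.9 CPM in the mutants (0.47, SE 0.084). Yeats4, a reader of acetylated histones in TIP60, rose by 0.36 and Taf5l by 0.34. Usp22, the deubiquitinase of SAGA, fell from 368, 329, 388 and 348 CPM to 269, 271, 265 and 280 CPM (-0.40, SE 0.058), and Morf4l2 fell by 0.31. Ep400, the motor of the TIP60 complex, rose by 0.21 with an adjusted p of 0.024, and lost its call without mutant 57, 59 or 61. Of 36 other regulators of histone acetylation 6 were higher and 2 lower. The Polycomb, DNA methylation and chromatin remodelling list had 8 of 46 higher and 3 lower. In both lists the higher share was near the 14.4% of all genes, and the lower share was under their 15.8%. Ring1, an E3 ligase of Polycomb complex PRC1, stood at 30.2, 27.6, 27.6 and 25.7 CPM in the controls and 47.0, 41.3, 45.0 and 45.0 CPM in the mutants (0.68, SE 0.063). Of the 46, 1 was higher with the cortical covariate, and the lower count was 1 without control 64 or mutant 57, 59 or 61.

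Of 34 Sp, Myc and E2F factors 13 were lower and 1 higher, with a median of -0.19, and 2 were lower with the cortical covariate. Myc went from 13.7, 12.6, 14.0 and 12.6 CPM to 8.16, 8.32, 8.37 and 9.53 CPM (-0.62, SE 0.075), Mycn fell by 0.70 and Klf13, a GC-box-binding factor, by 0.62. Sp2 rose by 0.51. Sp1 stood at 50.6 ± 2.24 CPM in the controls and 46.2 ± 1.11 CPM in the mutants (SD, n = 4), with a change of -0.13 that missed the threshold (adjusted p = 0.065). The GC box GGGCGG, which Sp factors bind, was within 250 bases before the start of 60.1% of 2029 lower, 53.9% of 1824 higher and 57.1% of 8227 genes not called. Of 36 p53 targets and apoptosis genes 5 were higher and 8 lower, with the cell cycle inhibitor Cdkn1a at -0.66.

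The circadian clock list had 7 of 19 genes higher and 1 lower, with a median of 0.14. Per1, a core repressor of the clock, stood at 38.0, 31.9, 39.3 and 34.7 CPM in the controls and at 55.6, 47.9, 45.9 and 42.1 CPM in the mutants (0.41, SE 0.092). Its relative Per3 rose by 0.32, and the output factors Hlf by 0.45 and Tef by 0.27. Npas2, the partner of Bmal1 in forebrain, fell from 17.1, 17.7, 24.2 and 15.4 CPM to 14.2, 10.3, 11.8 and 10.3 CPM (-0.67, SE 0.148). The hour at which tissue was taken is not given in the sources used here. With the midbrain covariate 3 clock genes were higher, and with the cortical covariate 0 by edgeR.

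Genes of neuronal excitability were lower more often than higher. Of 47 potassium channel genes 19 were lower and 2 higher, with a median of -0.21. Kcng1, a modifier subunit, went from 29.0, 24.1, 35.4 and 24.9 CPM to 16.7, 9.58, 13.3 and 10.2 CPM (-1.19), and Kcnq5 and Kcnq3, subunits of the M current that restrains firing, fell by 0.62 and 0.46. Of 28 sodium, calcium and HCN channels 11 were lower and 2 higher. Scn2a, a sodium channel of axons, went from 389, 409, 409 and 431 CPM to 275, 290, 292 and 270 CPM (-0.54, SE 0.052). The groups did not overlap in Kcng1 or Scn2a. With the cortical covariate 3 potassium channels were lower, and with the midbrain covariate 22.

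Of 31 glutamate receptor genes 16 were lower and 1 higher, with a median of -0.21. Gria3, an AMPA receptor subunit, stood at 155, 141, 153 and 153 CPM in the controls and at 100, 94.0, 96.9 and 99.3 CPM in the mutants (-0.63, SE 0.045, adjusted p = 5.8e-05), and Grin2b, an NMDA receptor subunit, fell by 0.48. Of 28 genes of GABA and glycine transmission 7 were lower and 1 higher. Gabra5, a subunit of extrasynaptic GABA receptors, fell by 0.78, from 115, 159, 116 and 110 CPM to 70.5, 73.0, 78.1 and 70.3 CPM, while Gad2, which makes GABA, rose by 0.30. Of 44 genes of synaptic vesicle release 15 were lower and 2 higher, or 23 lower without control 63; Unc13c, a priming factor, fell by 0.82, Sv2b by 0.80 and Cplx1 by 0.61, and Rab3a, a vesicle GTPase, rose by 0.34. Of 39 postsynaptic scaffolds 14 were lower and 1 higher. With the cortical covariate 3 glutamate receptor genes, 1 gene of GABA and glycine transmission, 5 of vesicle release and 0 postsynaptic scaffolds were lower by edgeR; with the midbrain covariate the counts were 11, 6, 22 and 9.

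Lists of neuropeptide, transmitter and G protein signalling also had more genes lower than higher. Of 39 genes of neuropeptides and their receptors 18 were lower and 2 higher, with a median of -0.30. The opioid receptors fell together: Oprk1 went from 27.2, 28.9, 34.1 and 32.5 CPM to 19.0, 19.1, 18.7 and 19.1 CPM (-0.69, SE 0.073), Oprm1 fell by 0.75 and Oprd1 by 0.71. The receptors Rxfp1 for relaxin, Npy1r for neuropeptide Y and Cckbr for cholecystokinin fell by 1.36, 0.90 and 0.90. Tac2, a tachykinin of the habenula that is also on the thalamus and habenula list, rose by 0.84. Of 31 receptors and enzymes of serotonin, acetylcholine, adenosine and cannabinoid signalling 14 were lower and 2 higher, with Chrm1 at -0.91, Cnr1 at -0.60 and Htr2a at -0.62. The dopamine and cAMP signalling list had 14 of 46 tested genes lower and 0 higher by edgeR, with 2 higher at an unadjusted p under 0.05 and 1 by DESeq2. Adcy1, a calmodulin-dependent adenylyl cyclase, went from 595, 636, 794 and 556 CPM to 401, 409, 419 and 390 CPM (-0.67, SE 0.099), and Rasgrp2, which activates Rap1 in projection neurons, fell by 0.72. Of 15 G protein beta and gamma subunits 7 were lower and 2 higher, with Gng4 at -0.77 and Gng3 at -0.63. With the cortical covariate 3 neuropeptide genes, 4 of the serotonin to cannabinoid list, 4 of the dopamine and cAMP list and 3 G protein subunits were lower; with the midbrain covariate the counts were 13, 13, 11 and 5.

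Of 39 genes of calcium binding and calmodulin signalling 19 were lower and 1 higher, or 2 lower with the cortical covariate and 14 with the midbrain covariate. The calmodulin genes Calm2 and Calm3 fell by 0.40 and 0.51, and Camk4, a nuclear kinase activated by calmodulin, fell from 334, 281, 436 and 261 CPM to 184, 195, 187 and 208 CPM (-0.76, SE 0.137). Immediate early genes were split, with 2 of 25 higher and 6 lower. Fos rose from 8.73 to 15.9 CPM in the controls to 15.3 to 22.0 CPM in the mutants (0.67, SE 0.168), with overlap between control 58 and mutant 61, while Egr3 fell by 0.73. Bdnf, a neurotrophin that reaches the striatum mostly by axons from cortex, fell by 0.67, from 31.7, 29.3, 17.9 and 31.6 CPM to 15.9, 17.6, 18.6 and 17.5 CPM, with control 64 among the mutant values. Of 43 neurotrophins and growth factors 21 were lower and 3 higher, including Ntf3 (-1.19) and Met (-1.24) among those that fell; 2 were lower with the cortical covariate.

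Cell surface molecules of wiring followed the same direction in part. Of 54 clustered protocadherins tested 21 were lower and 0 higher by edgeR or DESeq2, with 2 higher at an unadjusted p under 0.05. Pcdha9 went from 4.82, 4.35, 7.17 and 5.60 CPM to 2.19, 2.39, 2.78 and 2.44 CPM (-1.16, SE 0.158), and Pcdha12 fell by 1.11. The alpha genes share their last exons, so how shared reads were assigned limits these values. Of 59 axon guidance genes 16 were lower and 3 higher, with Plxnd1 at -0.78. The extracellular matrix list had 12 of 43 lower and 1 higher, or 19 lower without control 63. Wnt, Notch and hedgehog signalling had 6 of 47 higher and 7 lower, near the 14.4% and 15.8% of all genes, with 3 higher without mutant 59. With the cortical covariate 6 protocadherins, 2 axon guidance genes and 3 matrix genes were lower.

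Energy metabolism changed in places. Of 40 genes of glycolysis and the citrate cycle 17 were lower and 4 higher, with a median of -0.13; 11 were lower without mutant 57 or 60, and 3 with the cortical covariate. Pfkp, the platelet form of the committing enzyme of glycolysis, went from 600, 601, 575 and 574 CPM to 319, 347, 302 and 387 CPM (-0.80, SE 0.076), and Ldha, lactate dehydrogenase, fell by 0.53. Of 35 genes of fatty acid and lipid metabolism 10 were lower and 5 higher, with Lpl, lipoprotein lipase, at -1.01; the higher count was 2 or 3 without control 64 or any single mutant. Nuclear genes of oxidative phosphorylation had 13 of 73 lower and 0 higher (2 at an unadjusted p under 0.05, 0 by DESeq2), a lower share of 17.8% against the background of 15.8%. Without control 63, 6 of them were higher. Ribosomal protein genes had 16 of 78 lower and 1 higher, and control 63 stood above the other libraries. The lower count was 8 without mutant 57, 9 without mutant 59, 25 without control 65 and 0 by edgeR with the cortical covariate. Of 36 proteasome genes 1 was lower, Psmc3 (-0.27), and 4 were higher without control 63. Of 54 translation factors and tRNA synthetases 8 were lower and 3 higher (0 to 5 higher when mutant 57, 60 or 61 or control 63 was left out), and of 31 chaperones 9 were lower and 1 higher (5 lower without mutant 61). Lysosome and autophagy genes were mixed, with 10 of 43 higher and 7 lower, among them Gaa, the acid glucosidase, at 0.51 and Cln6 at 0.56; 5 or 6 were higher without mutant 57, 59 or 60. Of the lists not described so far, spliceosome and neuronal RNA-binding proteins had 8 of 56 higher and 11 lower (5 higher without mutant 57 or 59 or control 65, 7 lower without mutant 57, 59 or 61), the integrated and ER stress response 3 of 30 and 6 (3 lower without mutant 57 or 60 or control 58 or 65), histones 3 of 12 and 3, newly formed oligodendrocytes 1 of 14 and 1 (3 lower without control 63), neurofilaments and intermediate filaments 1 of 12 and 2, and mitochondrially encoded genes 0 of 9 and 2. Of the mitochondrially encoded genes 7 were lower by DESeq2, 3 by limma-voom and 6 at an unadjusted p under 0.05 by edgeR, with 0 higher each time, and 0 were lower without mutant 61.

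**Figure D3:**
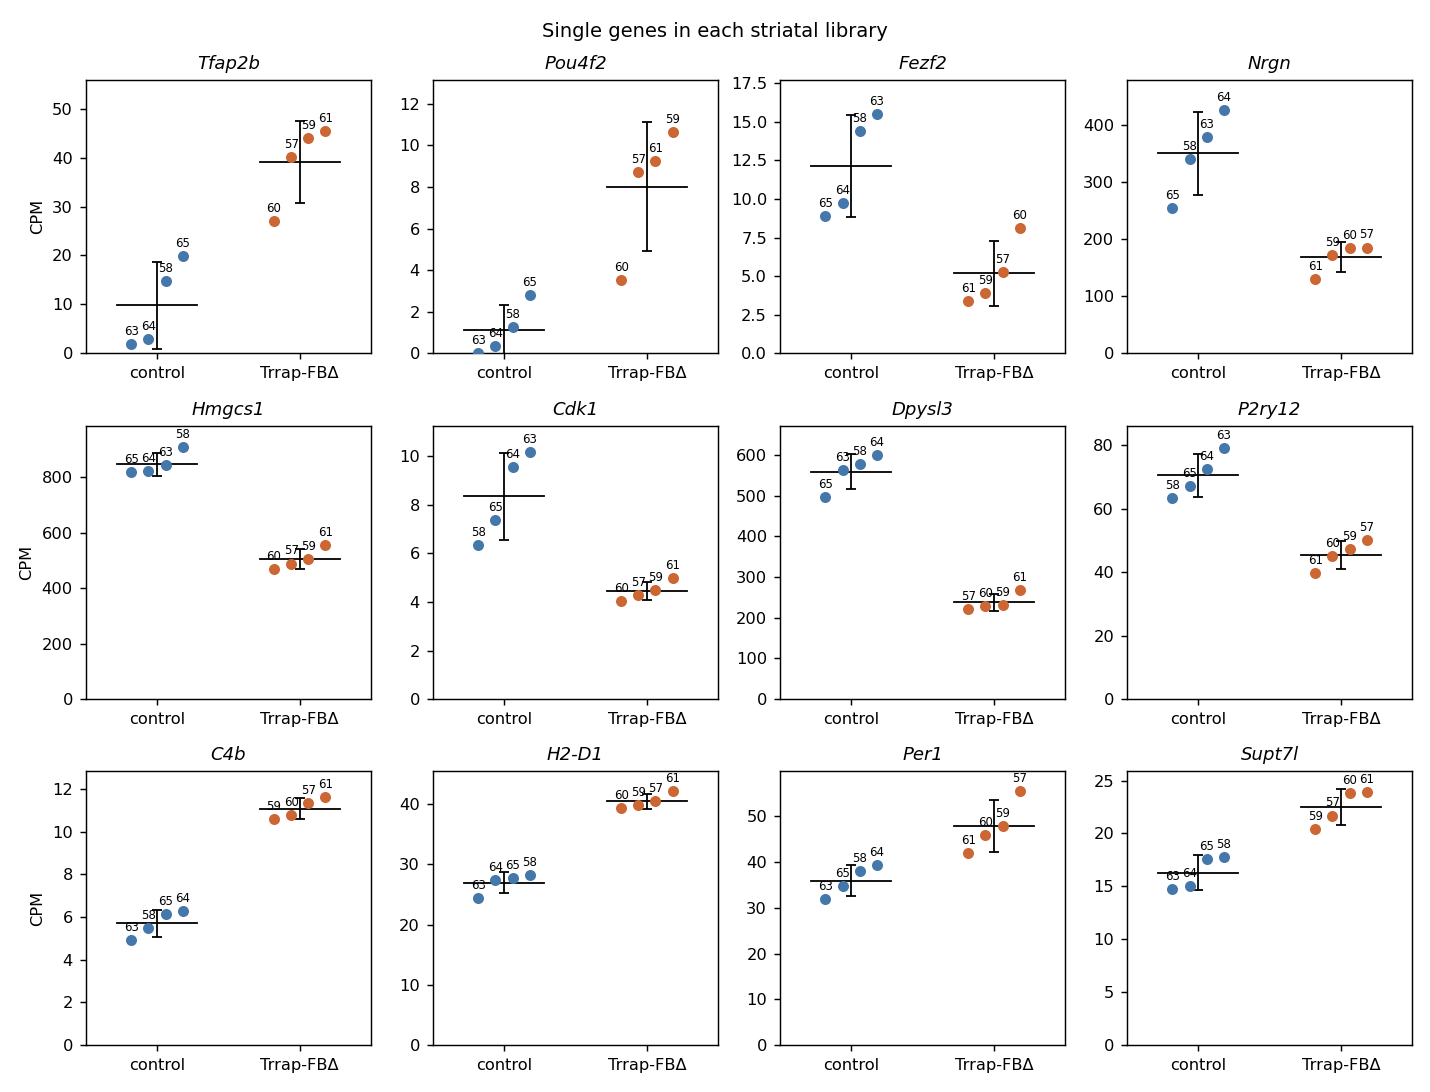
CPM (y axis, from 0) of 12 genes in each striatal library, control in blue and Trrap-FBΔ in orange, with mouse numbers and bars for the mean and SD of 4 libraries. Tfap2b, Pou4f2, C4b, H2-D1, Per1 and Supt7l are higher in all 4 mutants than in any control, and the other 6 genes are lower.

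The largest single rises among protein-coding genes held many transcription factors of the midbrain. Tfap2b, a factor of the dorsal midbrain and neural crest, stood at 14.7, 1.82, 2.95 and 19.8 CPM in the controls and at 40.1, 44.0, 27.0 and 45.4 CPM in the mutants (1.99, SE 0.575, adjusted p = 0.025). Pou4f2 was at 1.28, 0, 0.328 and 2.79 CPM and at 8.70, 10.6, 3.51 and 9.23 CPM (2.84, SE 0.689). Both were lowest in controls 63 and 64 and in mutant 60, which also had the lowest summed midbrain levels of their groups. Of the 15 genes named as the largest rises, 8 were on the midbrain list: Pou4f2, Tfap2b, Pax7, Dmbx1, Sox14, Mab21l1, Pou4f1 and Uncx. That list was chosen after values were seen, so this overlap is a description and no separate test. With the midbrain level as a covariate Pax7 was at -0.01. Tfap2b was at -0.14 in the cortex.

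Some other genes with large rises, Ush1c, Arhgef16, Fam92b and Dmrtc1a, were more even between libraries. Ush1c, a scaffold of sensory hair cells, stood at 1.08, 1.44, 1.12 and 1.28 CPM in the controls and at 3.34, 3.49, 3.95 and 3.16 CPM in the mutants (1.49, SE 0.130), and Arhgef16, an exchange factor for small GTPases, at 2.55, 1.79, 2.41 and 2.20 CPM and 6.46, 6.25, 6.07 and 6.25 CPM (1.49, SE 0.113). Fam92b rose by 1.68, Dmrtc1a by 1.39 and Etnppl, a phospholyase of astrocytes, by 1.65, with cortical changes of 1.55, 1.25 and 1.81. Etnppl was uneven among the mutants, at 2.30, 3.68, 1.55 and 1.45 CPM. Gm16503, Tnfrsf8 and Masp2 lay close together on chromosome 4. Gm16503 (chr4:147540218-147543500) held 0.0328, 0.124, 1.42 and 0.142 CPM in the controls and 4.27, 2.86, 2.32 and 5.26 CPM in the mutants (3.09, SE 0.654). Tnfrsf8 (chr4:145267137-145315164), the CD30 receptor, rose by 2.40, and Masp2 (chr4:148602554-148615499), a protease of the lectin pathway, showed the largest fall of all named genes at -1.80. In the cortex, where the control group includes mouse 55, Gm16503 stood at 1.63 CPM in that control, within the mutant range of 1.14 to 2.09 CPM.

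Among the other large falls were Dkkl1 (-1.68), Nnmt (-1.34), Dsc3, a desmosomal cadherin (-1.32), Pclaf, a PCNA-associated factor (-1.30), Kcnv1, a silent potassium channel subunit (-1.29), Rasl10a (-1.23), Crym, a thyroid hormone-binding protein (-1.20), and Ppm1j (-1.20). Kcnv1 went from 34.0, 46.4, 45.4 and 27.7 CPM to 17.7, 13.3, 18.5 and 13.1 CPM (SE 0.176). Crym, which lost its call without mutant 61, went from 56.9, 103, 77.0 and 53.2 CPM to 46.8, 17.4, 42.5 and 19.3 CPM (SE 0.329). The groups did not overlap, which the rule for naming these genes required. In the cortex the changes were -1.92 for Dkkl1, -1.07 for Nnmt, -0.41 for Dsc3, -0.66 for Pclaf and -0.30 for Kcnv1. Rasl10a stood at -0.40 there, Crym at 0.35 and Ppm1j at -0.88. Among these genes only the change of Kcnv1 differed between the tissues past adjustment (adjusted p = 0.042 by edgeR). Mean control levels were higher in cortex than in striatum for Kcnv1 (104 against 38.4 CPM) and Rasl10a (18.4 against 7.18 CPM). The same held for Dkkl1 (10.2 against 4.12 CPM), Nnmt (3.77 against 1.92 CPM) and Crym (92.6 against 72.5 CPM). For Dsc3, Pclaf and Ppm1j the cortical mean was the lower one. The part of the cortical markers in these falls was not tested beyond the fits with covariates.

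The smallest p-values belonged to genes with little spread. Pan2, a subunit of a deadenylase, stood at 40.4, 38.6, 39.1 and 40.0 CPM in the controls and at 64.2, 63.2, 62.1 and 64.2 CPM in the mutants (0.68, SE 0.042, adjusted p = 3.8e-05). Cdc42bpg, a kinase downstream of Cdc42, went from 8.22 to 9.20 CPM in the controls to 17.8 to 18.3 CPM in the mutants (1.08, SE 0.061). Within each group the libraries were nearly level. Ssc5d rose by 1.14, Eno3, the muscle enolase, by 1.06, and Amy1, an amylase with near-identical copies that leave its value uncertain, by 0.91. Ccnd1, the cyclin of the G1 phase, fell by 0.68, from 70.7, 68.4, 68.3 and 68.1 CPM to 44.6, 40.4, 43.6 and 42.8 CPM, and the microtubule regulator Stmn4 by 0.82.

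Lrp8os2, a transcript antisense to Lrp8 (chr4:107806033-107823022, minus strand), rose most among non-coding genes, from 1.47, 1.34, 1.94 and 2.15 CPM to 10.4, 9.71, 10.1 and 8.25 CPM (2.47, SE 0.149, adjusted p = 3.8e-05), and its cortical change was 2.53. Counting took account of strand. Gm47113, Gm32585, Abhd11os and Gm34004 rose by 1.91, 1.68, 1.54 and 1.43, and the largest falls were those of Gm32817 (-1.28), Gm48957 (-1.23), Gm26945 (-1.13), Gm37056 (-1.08) and Gm16702 (-0.97).

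Direction also varied with gene length and level. Among protein-coding genes in 10 bins of equal size by gene body length, the bin of the longest genes (139 to 2961 kb) had 27.2% lower and 9.34% higher, with a median of -0.07, and the bins from 18.1 to 49.9 kb had 13.2% to 15.3% lower. By mean level, the bin of highest CPM had 29.0% lower and 8.18% higher, whereas that of lowest CPM had 4.19% lower and more genes higher than lower. Within 10 bins of level, the longest genes had a lower median than the other genes in 8 (-0.13 against -0.05 in the highest) and a higher one in bins 1 (0.16 against 0.15) and 4 (-0.0018 against -0.011). Genes are not independent replicates, and power rises with counts, so these shares are descriptions.

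**Figure D4:**
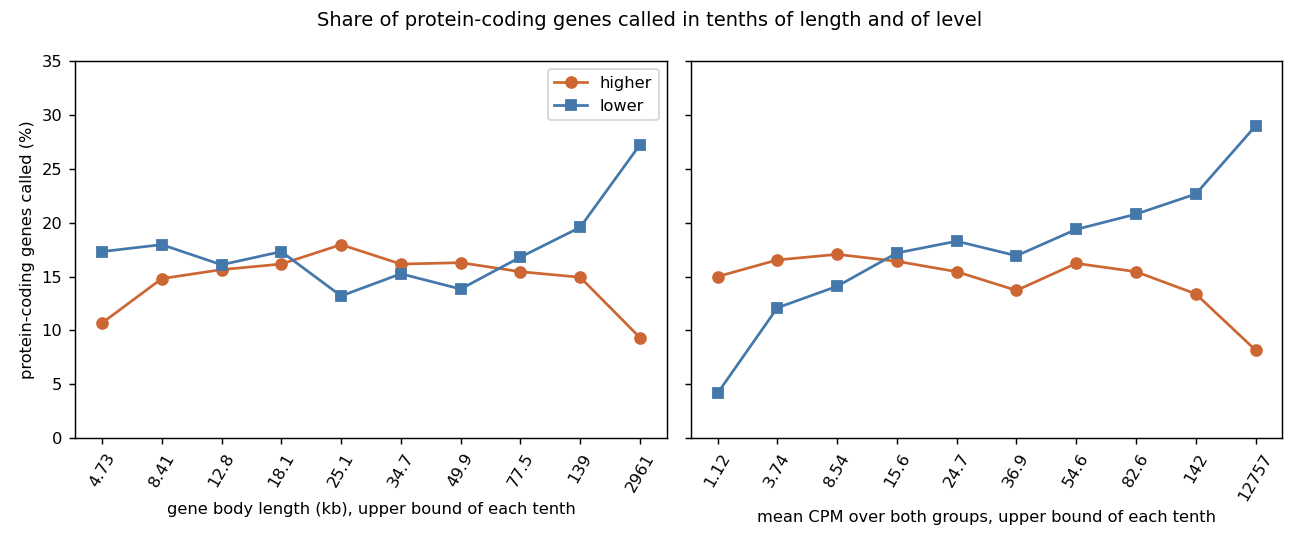
Share of protein-coding genes called higher (orange) or lower (blue) in 10 bins of gene body length (left) and of mean CPM (right); the x axis gives the upper bound of each bin. The lower share reaches 27.2% in the longest genes and 29.0% in the most abundant ones.

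The same contrast in the cortex, 4 against 4 libraries with 7 mice in both tissues, served to show where the striatum differed. Of 18268 genes tested there 2872 were higher (15.7%) and 3218 lower (17.6%). Most programs described here had a median on the same side in the cortex: -0.54 for the G2 and M phases, -0.43 for cholesterol synthesis, -0.50 for immature neurons and 0.17 for the interferon list. Myelinating oligodendrocytes had 19 of 27 genes lower in the cortex, with a median of -0.51. A test of the difference between the tissues over all 16 libraries called 85 of 19438 genes (0.437%), and 2347 (12.1%) had an unadjusted p under 0.05. At that unadjusted level 12 of 20 cortical excitatory markers differed, 0 of them past adjustment by edgeR, and 1 of 27 myelin genes.

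Rxfp2, a receptor of the relaxin family, gave the smallest p of this test. In the striatum it rose from 2.33, 3.06, 2.41 and 3.09 CPM to 5.22, 5.57, 5.73 and 4.67 CPM (0.95), and in the cortex it fell by 0.76, a difference of 1.71 (SE 0.168, adjusted p = 0.00024 by edgeR). Armcx2 rose slightly in the striatum (0.14) and fell in the cortex (-0.31). Gfod1 and Dusp6, a phosphatase of ERK kinases, fell in the striatum by 0.45 and 0.62, with cortical values of 0.00 and -0.03. Col5a1, a fibrillar collagen, stood at 0.24 in the striatum, which missed the threshold (adjusted p = 0.086), and fell by 0.59 in the cortex. The number of genes called depended on the sexes and mice in the fit and ranged from 18 to 151 when 1 library was left out (18 without striatal mutant 61, 151 without striatal control 65).

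**Figure D5:**
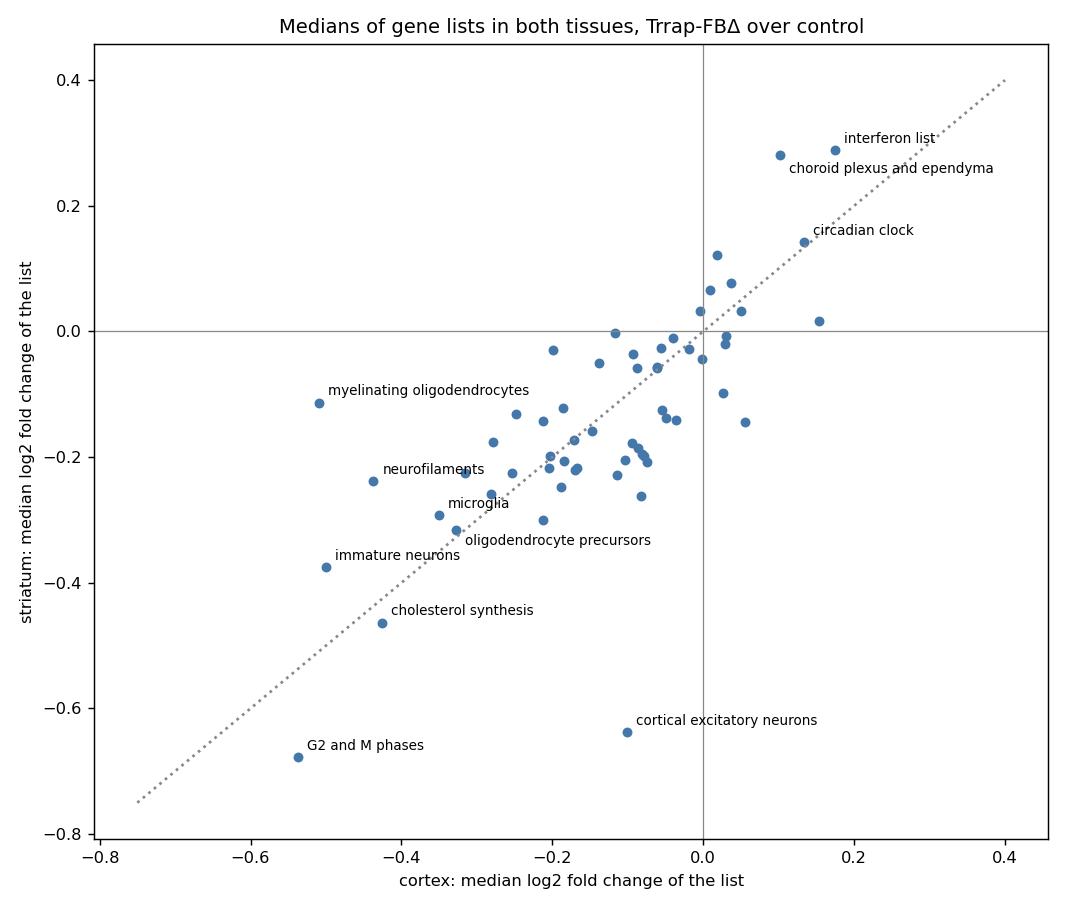
Median log2 fold change of each gene list in the cortex (x axis) and in the striatum (y axis), Trrap-FBΔ over control; the dotted line marks equal medians, and the regional lists and the sex check are left out. Cortical excitatory neurons lie far below the line at -0.10 and -0.64, and myelinating oligodendrocytes above it at -0.51 and -0.11.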

How the data were processed

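Striatal RNA (RNeasy Lipid Tissue kit) was made into TruSeq Stranded mRNA libraries and sequenced as single-end reads on a HiSeq2500. The authors demultiplexed with bcl2fastq 1.8.4, mapped with STAR 2.5.4b to GRCm38 and made the deposited counts with featureCounts 1.5.0 (versions from the submitters' processing notes), as strand-specific counts of uniquely mapped reads per gene that were not normalized. Of 53801 identifiers 53706 matched a GENCODE symbol and 95 did not, and 0 columns belonged to no sample. Total counts were between 31735896 and 47612379 per striatal library. Nothing in the labels beyond mouse numbers says how samples were taken, so p-values measure the spread between these mice.

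From the counts, edgeR 4.0.16 (R 4.3.3) with its expression filter, TMM scaling, a quasi-likelihood test and Benjamini-Hochberg adjustment (threshold 0.05) compared Trrap-FBΔ with control over the 8 striatal libraries, and tested striatum minus cortex over all 16. CPM values and fold changes are own computations. DESeq2 1.42.0, limma-voom (limma 3.58.1), other scalings and filters, sex as a covariate and leaving out each library were tried as alternatives. No library pair of a group agreed within sampling noise (chi-square over degrees of freedom 8.26 to 44.6 in 12 pairs). The steps were tested on simulated data.

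Genes named are Trrap, the 15 largest rises and 15 largest falls of protein-coding DEGs whose mean count was 50 or more and whose groups were apart (without Xist, Y-linked and microtubule genes), 5 and 5 of other biotypes, the 10 smallest p-values, the 5 smallest for striatum minus cortex, and members of 60 gene lists. Members and lists were chosen with earlier results of these data known. The 4 regional lists, the motifs other than the GC box, the 3 covariates of list levels, both pairs of libraries left out and the chromosome 4 stretch were chosen after seeing values. Promoter windows came from RefSeq (GRCm38.p6) for 12080 of 15527 protein-coding genes tested, 10992 of them within 1000 bases of the annotated start. Intervals and p-values cover counting error and spread between mice only.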

Additional observations from a re-analysis of the deposited data

Results flagged for a closer look

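Among 482 groups of 4 striata examined, over the genes with values in the text and the gene lists, 17 held 1 library far from the other 3, and chance gives about 1 in 20 groups. Gm16503 stood at 1.42 CPM in control 64, against 0.0328 to 0.142 CPM in the other controls. Ccnd1 stood at 70.7 CPM in control 58, in a group where the others lay within 68.1 to 68.4 CPM. In control 63, Fabp7 stood at 431 CPM, Nrep at 528 CPM and Gabra5 at 159 CPM, each above the other controls. In control 64, Pole stood at 6.13 CPM and Gbp3 at 6.02 CPM, apart from the other controls. In mutant 61, Lpl stood at 21.4 CPM and Myc at 9.53 CPM, and in mutant 57 Ppp1r1b stood at 133 CPM, apart from the other mutants. Ebf1 stood at 10.3 CPM in control 63, apart from the other controls. Mutant 57 also stood apart in mean log2(CPM + 0.5) over the markers of striatal projection neurons (5.93), of direct pathway neurons (4.55) and of clustered protocadherins (2.53). Control 64 stood apart from the other controls in the Sp, Myc and E2F factors (4.77) and in the hypothalamic genes (1.62), and control 63 in the axon guidance genes (5.58).

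The effect of genotype differed between striatum and cortex for 85 genes by edgeR's test of the difference. The 5 with the smallest p were Rxfp2 with a difference in log2 fold change, striatum minus cortex, of 1.71, Armcx2 with 0.45, Gfod1 with -0.45, Dusp6 with -0.59 and Col5a1 with 0.82.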

How the results depend on the processing

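No paired analysis was possible because the control and Trrap-FBΔ striata came from different mice that share no number. For striatum minus cortex, where 7 mice gave both tissues, limma-voom with the mouse as a replicate block (correlation 0.208) called 303 genes, and 47 with sex in each tissue added (correlation 0.198). The 85 genes came from edgeR without a block, so tool and block changed together. DESeq2 called 430 and edgeR with sex in each tissue 2, and leaving out 1 library gave 18 to 151.

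The striatal count of 5704 DEGs was 1364 in the test against a fold change of 1.2 (648 higher, 716 lower) and 713 with the cortical excitatory level as a covariate (307 higher, 406 lower). The higher count was 1772 with the midbrain covariate and 1790 without control 58 and mutant 61. Leaving out 1 library gave 4205 to 5769 DEGs, 1969 to 2710 higher and 2236 to 3059 lower. Sex as a covariate gave 4312, of which 4100 were among the 5704, and DESeq2 5951. Of 177 single genes followed through these fits, 15 lost their call with sex as a covariate, and Mbp, not called, changed sign. Only Srebf2 and Gbp3 among those that lost their call are named above. With upper-quartile normalization 53.9% of DEGs were higher, against 47.8%. Trrap ranged from -0.07 to -0.02 when 1 library was left out and was 0.035 with the cortical covariate. In the 300-base window GGGCGG was in 59.3% of higher, 65.3% of lower and 61.7% of genes not called. With the midbrain covariate Pax7 was at -0.013 and Camk2a at 0.016, and with the cortical one Camk2a at 0.087, Tbr1 at 0.13, Neurod6 at 0.055 and Slc17a7 at 0.0043. Calls that ended when 1 library was left out were those of Tfap2b and Dmbx1 (mutant 57, 59 or 61), Pax7 (also control 64), Isg15 (mutant 57 or 60, control 58 or 64), Pole (mutant 57, 59 or 61, control 58 or 65), Egr3 (mutant 59 or 61, control 64), Ebf1 (mutant 59 or 61), Kcnab1 (mutant 60 or 61), Gad2 (mutant 57 or 60) and Armcx2 (mutant 59, 60 or 61, control 58 or 64), beside those given with the genes. The markers Ppp1r1b, Drd1, Drd2 and Mbp were not called, and their signs turned. Ppp1r1b (-0.61) was at 0.46 with the midbrain covariate, 0.37 with the projection neuron covariate and 0.60 without controls 63 and 64, and between -0.97 and 0.27 when 1 library was left out. Drd1 (-0.73) was at 0.20 with the midbrain covariate and 0.21 without controls 63 and 64, and was called lower without control 58. Drd2 (0.07) was at -0.18 with the cortical covariate, -0.17 without control 58 and mutant 61, and -0.15 to 0.51 when 1 library was left out. Mbp (-0.13) was at 0.0087 with sex as a covariate, 0.020 without control 58 and mutant 61, and -0.33 to 0.15 when 1 library was left out. The causes were not tested.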

Other observations

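A stretch of chromosome 4 (145 to 149 Mb, GRCm38), chosen after its values were seen, held 43 genes tested in the striatum, of which 12 were higher and 5 lower (39.5% called, against 30.2% of all genes). Levels went with the mouse in both tissues for the genes examined there, Tnfrsf8, Gm16503, Masp2, Fv1 and Zfp982. The other genes of the stretch were not examined in this way. In the striatum Tnfrsf8 stood at 6.53 and 6.60 CPM in mutants 57 and 61, at 3.91 and 4.14 CPM in mutants 59 and 60, at 2.79 CPM in control 64 and at 0.249 to 0.688 CPM in controls 58, 63 and 65. Masp2 ran the other way, at 0.497 and 0.591 CPM in mutants 57 and 61, 2.05 and 2.18 CPM in mutants 59 and 60, 3.04 CPM in control 64 and 4.19 to 5.87 CPM in the other controls. In the cortex Masp2 stood at 0.840 and 0.540 CPM in mutants 57 and 61, 2.14 and 1.97 CPM in mutants 59 and 60, 2.18 CPM in control 64, 5.63 and 3.85 CPM in controls 58 and 63, and 0.530 CPM in control 55, whose striatum is not in the contrast. Control 55 thus held the lowest Masp2 level of the cortices.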
